A study of Mus musculus with 2 samples.

Results

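Interferon-stimulated genes are described here in single cells of the mouse dental pulp, the soft vascular tissue inside the tooth. The set is a list of 35 gene symbols, found by name among the 31053 genes of both deposited count tables. All 35 had a unique molecular identifier (UMI, a tag that marks 1 captured RNA molecule) in the kept control cells, and 34 in the kept knockout cells. The study compared the pulp of control mice with that of mice lacking Vegfr2 in endothelial cells, with 1 library each (2 in all). Both libraries came from C57BL/6 mice at postnatal day 12, and in both the pulp was dissociated with enzymes, sorted for cells negative for propidium iodide (a stain of dead cells) and made into droplet libraries that read the 3' end of transcripts. The Cre line or other allele that limits the knockout to endothelial cells, its timing, the number of animals in each library and what the control mice carried are not given in the sources used here. With 1 library per genotype no difference has a replicate check, so no test was made and no p-value is given. Intervals are exact 95% intervals that cover counting error only.

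As background, interferons are secreted proteins that bind receptors on most cells. Type I and type III interferons act through JAK kinases to form a complex that contains STAT2 and IRF9 and binds the interferon-stimulated response element (ISRE). Interferon gamma acts mainly at another element, the gamma-activated site (GAS). The genes switched on include sensors of foreign RNA and DNA, antiviral effectors, GTPases that attack the vacuoles of intracellular microbes, and proteins that feed back on the pathway. Endothelial cells and myeloid cells are both known to respond to interferon.

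The promoters of 6 members are shown, all of which hold a match to the ISRE core. Of these, Ifit1, Ifit3 and Isg15 had ratios on opposite sides of 1 in endothelial and myeloid cells. Ifit3b is the near copy of Ifit3, Rsad2 led in endothelial cells of both libraries and Oas1a was higher in knockout myeloid cells. Other members had these traits too. Ifit2, Oasl2, Ifi47 and Lgals3bp also had ratios on opposite sides of 1, but no ISRE core match in the windows searched. Each promoter shown is the 250 bases before the RefSeq transcription start on GRCm38.p6, written 5' to 3' on the strand of the gene. Capitals mark matches to the ISRE core GAAANNGAAA on either strand, and overlapping matches run together. Ifit1 has 2 matches that begin 104 and 85 bases before the start. Ifit3 has 2, at 156 and 122 bases, and Ifit3b 2, at 188 and 154 bases. Isg15 has 3 overlapping matches at 78, 72 and 66 bases, Rsad2 has 1 at 120 bases, and Oas1a has 2 overlapping matches at 20 and 14 bases.
Ifit1, chr19:34640639-34640888, plus strand: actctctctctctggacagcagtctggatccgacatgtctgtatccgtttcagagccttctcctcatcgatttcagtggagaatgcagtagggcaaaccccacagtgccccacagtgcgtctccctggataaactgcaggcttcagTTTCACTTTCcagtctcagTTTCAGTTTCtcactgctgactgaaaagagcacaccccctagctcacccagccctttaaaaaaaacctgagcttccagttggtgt
Ifit3, chr19:34583279-34583528, plus strand: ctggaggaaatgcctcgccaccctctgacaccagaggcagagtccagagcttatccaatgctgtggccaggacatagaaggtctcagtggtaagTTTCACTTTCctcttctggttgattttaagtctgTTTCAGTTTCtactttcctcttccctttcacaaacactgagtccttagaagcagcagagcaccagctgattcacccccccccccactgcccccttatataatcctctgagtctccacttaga
Ifit3b, chr19:34607707-34607956, plus strand: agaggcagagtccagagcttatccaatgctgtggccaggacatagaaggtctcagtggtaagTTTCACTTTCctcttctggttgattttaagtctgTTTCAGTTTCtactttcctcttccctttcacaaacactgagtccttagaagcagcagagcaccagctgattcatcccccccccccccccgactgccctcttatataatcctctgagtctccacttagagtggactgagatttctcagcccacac
Isg15, chr4:156200819-156201068, minus strand: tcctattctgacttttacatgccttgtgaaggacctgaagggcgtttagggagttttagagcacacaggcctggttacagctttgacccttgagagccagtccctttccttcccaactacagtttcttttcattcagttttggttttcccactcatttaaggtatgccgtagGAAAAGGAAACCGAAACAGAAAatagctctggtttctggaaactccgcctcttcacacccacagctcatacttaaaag
Rsad2, chr12:26456453-26456702, minus strand: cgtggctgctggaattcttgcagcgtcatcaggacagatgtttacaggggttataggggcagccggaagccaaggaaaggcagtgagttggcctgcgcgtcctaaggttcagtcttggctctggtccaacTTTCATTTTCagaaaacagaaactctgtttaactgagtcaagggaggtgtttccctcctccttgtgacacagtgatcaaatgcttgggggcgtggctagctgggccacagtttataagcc
Oas1a, chr5:120907526-120907775, minus strand: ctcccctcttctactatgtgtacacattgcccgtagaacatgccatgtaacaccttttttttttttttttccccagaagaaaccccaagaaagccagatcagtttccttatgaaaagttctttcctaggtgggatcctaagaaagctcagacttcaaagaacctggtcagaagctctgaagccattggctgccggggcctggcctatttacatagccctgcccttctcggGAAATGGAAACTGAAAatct

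The capitals spell the same 2 stretches in Ifit1, Ifit3 and Ifit3b. These genes and Ifit2 lie side by side on chromosome 19, between 34550694 and 34650009 (GRCm38). RefSeq promoter windows of 300 bases (250 before to 50 after the start) matched 27 of the 35 members. The ISRE core was in 16 of these 27 members, against 3.99% of 27025 genes with such a window. These were Ifit1, Ifit3, Ifit3b, Isg15, Stat2, Oas1a, Rsad2, Bst2, Irgm1, Igtp, Gbp2, Gbp3, Gbp7, Ddx58, Ifih1 and Trim30a. Their windows held 26 matches, of which 22 began within 200 bases before the start. The GAS core TTCNNNGAA, searched on both strands, was in 6 of the 27 members and in 9.55% of genes, and in 1 member promoter matches of the 2 motifs overlapped. A match describes letters in these windows and is not a measured binding site. The members with no entry were Usp18, Ifi27l2a, Ifi204, Iigp1, Rtp4, Zbp1, Dhx58 and Parp14.

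The deposited tables held 3487 control and 2563 knockout barcodes, with 35918862 and 17277162 UMIs. The 2309 control and 1679 knockout cells that passed the filters had median depths of 12198 and 8293 UMIs, so the control library was the deeper. In endothelial cells Kdr, the gene of VEGFR2, was at 1045 CPM (UMIs scaled to the total of the class) in control and 674 CPM in knockout cells, which checks nothing about the deletion, because 3' tags may lie outside the deleted part. Among cells assigned by Xist or Y-linked UMIs, 16.1% of control and 33.9% of knockout cells were Y-positive, so the sexes of the animals were mixed in different proportions. The libraries shared 3 barcodes, 2 of them among kept cells. Cells were put into classes by markers that include no member: 399 control and 138 knockout endothelial cells, 527 and 536 myeloid, 38 and 44 lymphoid, 820 and 503 stromal (mesenchymal and mural cells together), and 441 and 372 glial cells, while 84 and 86 cells had too few or mixed markers. Endothelial cells had a median of 11 of 12 endothelial markers in both libraries, and myeloid cells 11 and 10 of 12 myeloid markers. The lymphoid class was mainly B cells (30 and 27) with 6 and 10 T cells and 2 and 6 natural killer (NK) cells. Endothelial cells made up 17.3% of kept control cells and 8.22% of kept knockout cells.

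Summed over the 35 members, expression was highest in myeloid cells of the control library and in endothelial cells of the knockout library. The summed level was 1369 CPM in control and 1963 CPM in knockout endothelial cells, a knockout over control ratio of 1.43 (1.36 to 1.51). In myeloid cells it was 1993 and 1299 CPM, a ratio of 0.652 (0.634 to 0.670). Over the whole classes, the set was therefore higher in knockout than in control endothelial cells and lower in knockout than in control myeloid cells, and the make-up of both classes differed between the libraries. In lymphoid cells the sums were 1028 and 925 CPM, with a ratio of 0.900 whose interval of 0.768 to 1.05 includes 1. Stromal cells held 324 and 345 CPM (ratio 1.07, 1.002 to 1.13) and glia 318 and 256 CPM (ratio 0.805, 0.742 to 0.873), well below endothelial and myeloid cells in both libraries. The myeloid sum rests in large part on Ifi27l2a, a small hydrophobic protein of the Ifi27 family with 5241 of the control UMIs. Without Ifi27l2a the ratio was 0.655 in myeloid, 1.43 in endothelial, 1.09 in stromal and 0.802 in glial cells. In lymphoid cells it was then 1.04, on the other side of 1.

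**Figure D1:**
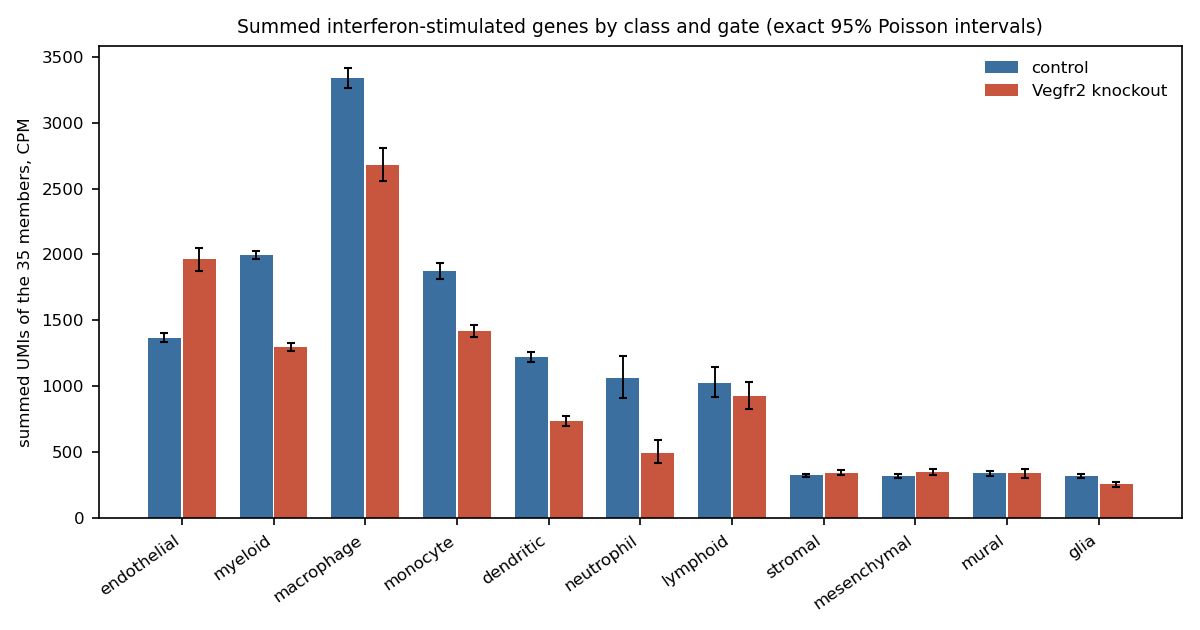
Summed level of the 35 members in CPM (y axis) for each cell class and for the gates within myeloid and stromal cells (x axis), with blue bars for the control and red bars for the knockout library. Error bars are exact 95% Poisson intervals, and the endothelial bars are the pair in which the knockout library is clearly the higher, at 1963 against 1369 CPM.

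The classes differed in which members they carried. UMI libraries of this kind count molecules at the 3' end, so levels can be set beside each other between genes without scaling to length. In the control library 16 members were highest in myeloid cells, 13 in endothelial cells, 4 in lymphoid cells, Lgals3bp in stromal cells and Ifit2 in glia. In the knockout library 23 were highest in endothelial cells and 8 in myeloid cells, and 24 members had the same leading class in both libraries. Counted only where the intervals of the first and second class did not overlap, endothelial cells led for 7 control and 14 knockout members and myeloid cells for 10 and 3.

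Several members were nearly restricted to 1 class in both libraries. Ifi44, a cytoplasmic interferon-induced protein, was at 37.3 and 64.2 CPM in control and knockout endothelial cells, 50.7 and 44.8 times the level in stromal cells, the next class. It had 0 UMIs in 441 control and 372 knockout glia, which allows shares of up to 0.680% and 0.806% (3 cells of the total), while 24.1% of control and 23.9% of knockout endothelial cells had a UMI at median depths of 9880 and 5707 UMIs per cell (glia 12229 and 8666.5). Oas1a, an enzyme that makes the activator of RNase L, was at 10.2 and 16.4 CPM in myeloid cells. These levels were 17.6 and 16.6 times those in endothelial cells, the next class. Ifi204, a DNA-binding protein of the p200 family, was at 89.5 and 73.2 CPM in myeloid cells, 9.77 and 18.5 times the next class. That class was lymphoid in the control and endothelial in the knockout library. Ifi44 in stromal, Oas1a in endothelial and Ifi204 in lymphoid cells had too few UMIs to be compared between the libraries. The folds over these classes are therefore imprecise, although the intervals of the first and next class did not overlap in either library. Rsad2, which encodes viperin, an enzyme that makes a chain-terminating nucleotide, led in endothelial cells at 64.2 and 55.3 CPM, 3.27 and 6.92 times the myeloid level. The tetherin gene Bst2, which holds budding virus at the cell surface, was abundant in endothelial cells (251 and 298 CPM) and myeloid cells (177 and 135 CPM).

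**Figure D2:**
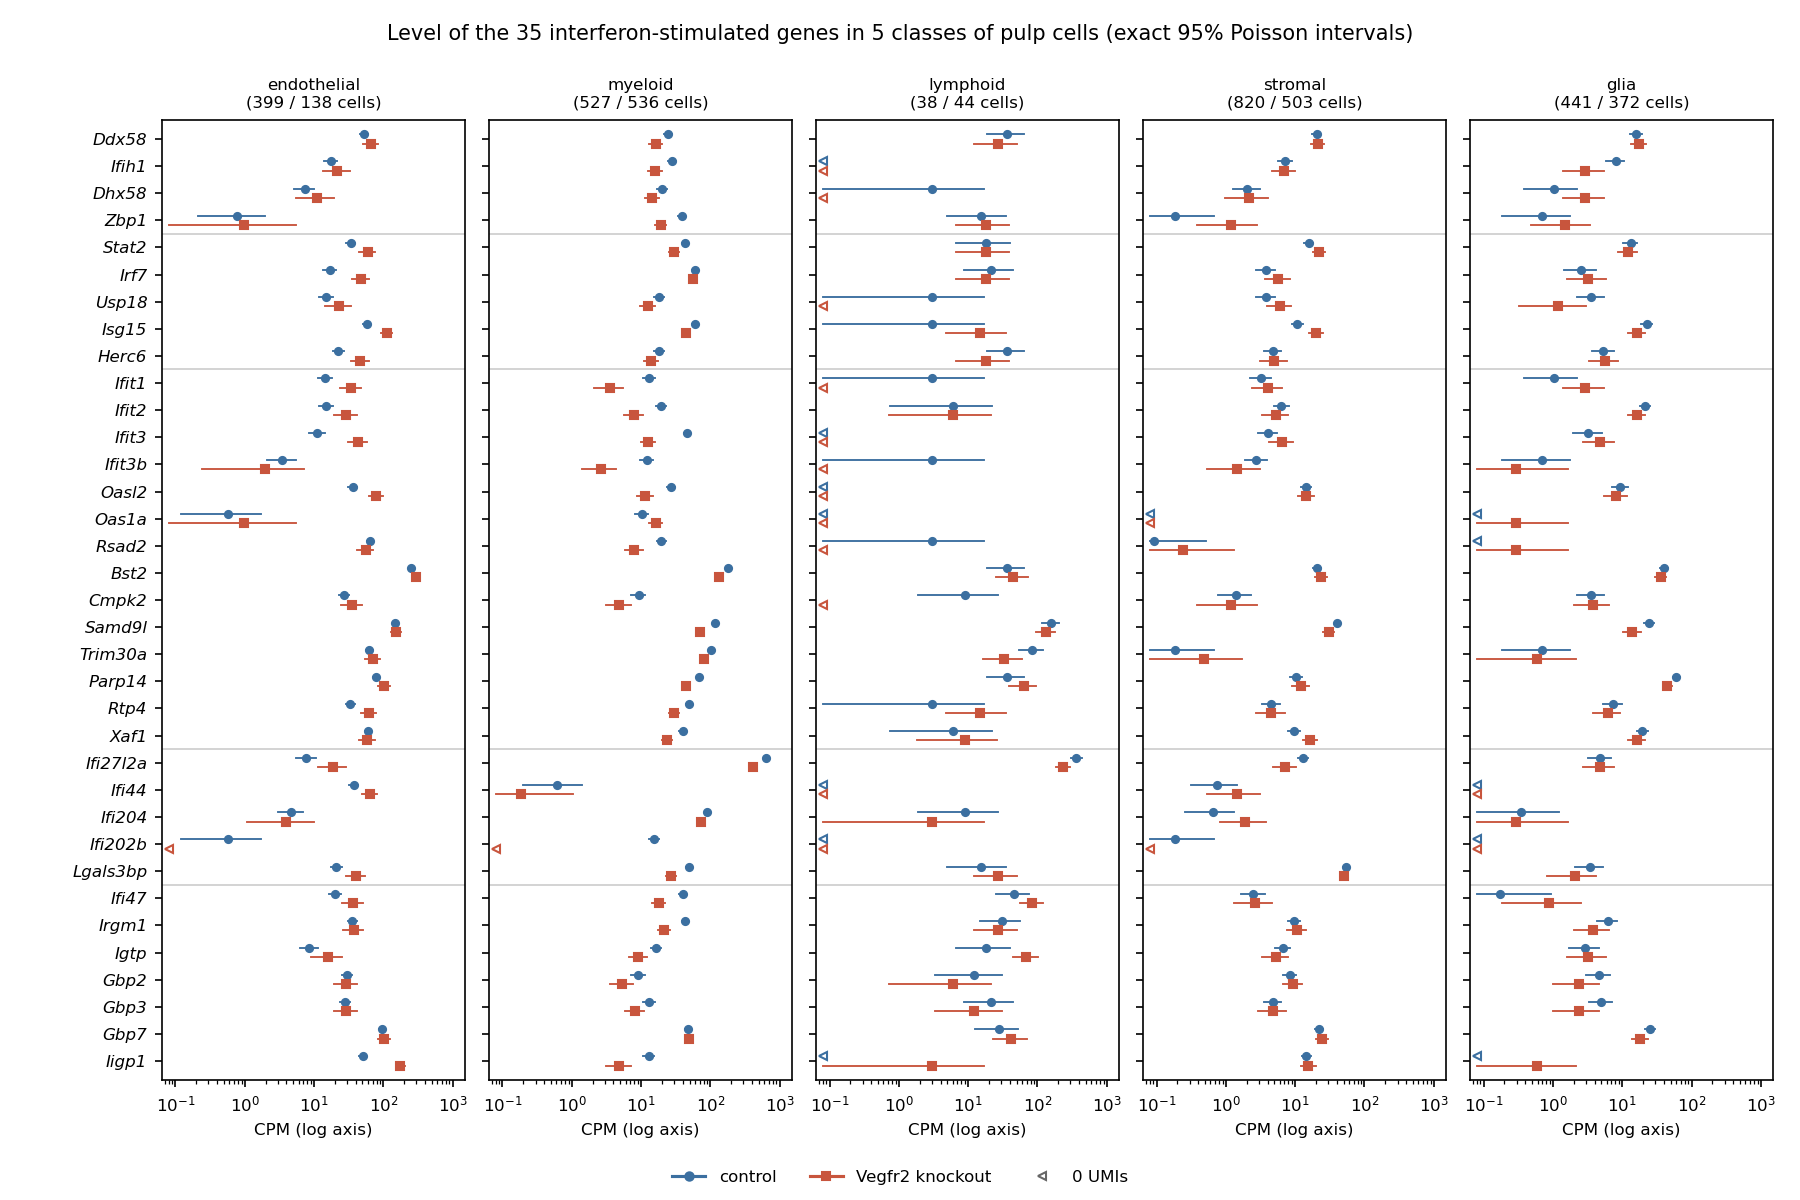
Level of each of the 35 members (y axis, grouped by role) in CPM (x axis, log scale) in each of 5 cell classes (panels), with blue circles for the control and red squares for the knockout library, exact 95% Poisson intervals and open triangles for 0 UMIs. Ifi44 stands out in the endothelial panel, Oas1a and Ifi204 in the myeloid panel, and the points of the knockout library lie mostly to the right of control in endothelial cells and to the left in myeloid cells.

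In endothelial cells, 32 members had at least 20 UMIs over both libraries, the lower limit for a comparison, and Oas1a, Ifi202b and Zbp1 did not. Of the 32, 16 were at least 1.5-fold higher in the knockout library and 1 (Ifit3b) at least 1.5-fold lower. Among all 10835 genes measured there, 11.6% were as much higher and 15.3% as much lower. The median log2 ratio was 0.58 over the 32 members and −0.02 over all genes. By the interval instead of the fold, 16 members lay wholly above 1 and 0 wholly below, against 14.2% and 12.4% of all genes.

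All 5 members that transmit or tune the signal were among the 16. Irf7, the transcription factor that amplifies type I interferon production, was at 16.8 CPM in control and 47.4 CPM in knockout endothelial cells (ratio 2.82, 1.94 to 4.05), from 87 and 48 UMIs. Isg15, a ubiquitin-like protein that is coupled to other proteins, was at 57.6 and 112 CPM (ratio 1.94, 1.55 to 2.41), with 24.8% of the knockout UMIs in 1 cell. Stat2, a subunit of the ISRE-binding complex, was at 34.0 and 59.3 CPM (ratio 1.74, 1.28 to 2.35). Herc6, the main ligase for ISG15 in the mouse, was at 22.4 and 46.4 CPM (ratio 2.07, 1.44 to 2.93), with the limit that 26.1% of the 90-base windows in its last 400 bases are shared with another annotated gene. Usp18, which removes ISG15 and damps receptor signalling, was at 15.1 and 22.7 CPM, and its ratio of 1.51 had an interval of 0.902 to 2.42.

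Of the 13 measured antiviral effectors, 5 were higher and 1 lower by 1.5-fold. Ifit3 (11.2 and 42.5 CPM, 58 and 43 UMIs) had the largest ratio of any member in this class, 3.79 (2.49 to 5.71). The Ifit proteins bind viral RNA and form complexes with each other. Ifit1 was at 14.3 and 34.6 CPM (ratio 2.42, 1.57 to 3.66) and Ifit2 at 14.9 and 28.6 CPM (ratio 1.92, 1.21 to 2.98). Ifit3b, the near copy of Ifit3, had 18 and 2 UMIs, a ratio of 0.567 (0.0638 to 2.37), and 8.68% of the end windows of Ifit3 are shared with it, so reads of the pair may be split. Oasl2, an oligoadenylate synthetase-like protein, was at 36.2 and 79.0 CPM (ratio 2.18, 1.66 to 2.85), and Rtp4, a receptor chaperone, at 33.3 and 62.2 CPM (ratio 1.87, 1.38 to 2.51). The abundant effectors differed less. Bst2 had a ratio of 1.19 (1.04 to 1.35), and Parp14, a mono-ADP-ribosyltransferase, one of 1.30 (1.04 to 1.62). Samd9l, an antiviral translation inhibitor, was at 148 and 153 CPM (ratio 1.03), Trim30a at a ratio of 1.12, Cmpk2, a mitochondrial nucleotide kinase, at 1.31 (0.884 to 1.91), and Xaf1, a pro-apoptotic factor, at 0.969. Rsad2 was at 64.2 and 55.3 CPM, with a ratio of 0.861 whose interval of 0.637 to 1.15 includes 1.

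The interferon-inducible GTPases were split. Iigp1, a GTPase that acts on vacuoles of intracellular parasites, was at 50.1 and 175 CPM (259 and 177 UMIs), a ratio of 3.49 (2.87 to 4.24). It was found in 24.1% of control and 39.1% of knockout endothelial cells, and in 9.49% and 18.1% once every cell was thinned to 2000 UMIs, while without thinning it was found in 0 of 441 control glia, which allows up to 0.680%, and in 0.538% of knockout glia. Of the related GTPases, Ifi47 was at 19.9 and 36.6 CPM (ratio 1.83, 1.22 to 2.70) and Igtp at 8.51 and 15.8 CPM (ratio 1.86, 0.978 to 3.36). Irgm1 and the guanylate-binding proteins Gbp2, Gbp3 and Gbp7 had ratios from 0.949 to 1.09, and each of their intervals includes 1.

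Of the Ifi genes and Lgals3bp, Ifi44 had a ratio of 1.72 (1.28 to 2.29). Lgals3bp, a secreted galectin-binding glycoprotein, was at 21.1 and 40.5 CPM (ratio 1.92, 1.31 to 2.77). Ifi27l2a was at 7.74 and 18.8 CPM, a ratio of 2.43 (1.33 to 4.29), but 36.8% of its 19 knockout UMIs came from 1 cell. The RNA sensors had smaller ratios. Ddx58, which encodes RIG-I, was at 52.8 and 66.2 CPM (ratio 1.25, 0.945 to 1.64), Ifih1, which encodes MDA5, at a ratio of 1.25 (0.745 to 2.01), and Dhx58, their regulator LGP2, at 1.48 (0.681 to 2.95), so 0 of 3 measured sensors passed 1.5-fold.

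The endothelial values stand beside other differences between the libraries. Myeloid markers summed to 83.6 CPM in control and 138 CPM in knockout endothelial cells. A list of 10 genes that rise when tissue is dissociated was 1.5-fold higher for 5 and lower for 0 members in knockout endothelial cells, with a median log2 ratio of 0.66. The part of either in these results was not tested. In cells with Xist and no Y-linked UMI the summed ratio was 1.32, and 13 of 30 measured members were at least 1.5-fold higher and 1 lower (12.3% and 19.6% of all genes). With every cell thinned to 2000 UMIs it was 1.36, with 8 of 23 higher and 1 lower (15.3% and 18.0%). In Y-positive cells, 69 control and 41 knockout, 6 of 20 measured members were higher and 2 lower, against 17.5% and 17.8% of all genes.

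The make-up of the endothelial class differed as well. In clusters made without the members, endothelial cells fell into 4 that the libraries filled unevenly, with 129 control and 15 knockout, 202 and 86, 28 and 6, and 58 and 36 cells. The cluster with 58 and 36 cells carried the most of the set, at 2233 and 2779 CPM, and made up 13.9% of the control and 25.2% of the knockout cells of the 4. Its summed ratio was 1.24 (1.15 to 1.35), with 11 of 27 measured members at least 1.5-fold higher and 2 lower, against 12.8% and 13.0% of its genes. In the cluster with 202 and 86 cells, at 1126 and 1503 CPM, the ratio was 1.33 (1.24 to 1.44), with 9 of 28 higher and 1 lower, against 14.3% and 19.2%. Both ratios were nearer to 1 than that of the whole class. The clusters with fewer than 20 knockout cells, which together held 157 control and 21 knockout cells, were not compared. The set was at 1498 and 2308 CPM in the one of 129 and 15 cells, and at 746 and 387 CPM in the one of 28 and 6.

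In myeloid cells the set lay the other way. Of 34 measured members, all but Ifi44, 23 were at least 1.5-fold lower in the knockout library and 1 (Oas1a) at least 1.5-fold higher, against 10.9% and 9.27% of 11311 genes. The median log2 ratio was −0.73 over the members and −0.10 over all genes. The interval lay wholly below 1 for 30 members and above 1 for 1, against 22.1% and 13.8% of genes.

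Ifit3b, Ifit3 and Ifit1 had the lowest ratios among members present in both libraries. Ifit3 was at 46.6 CPM in control and 12.6 CPM in knockout myeloid cells (384 and 68 UMIs), a ratio of 0.271 (0.206 to 0.352). Ifit1 was at 13.0 and 3.53 CPM (ratio 0.272, 0.158 to 0.446), where 31.6% of the 19 knockout UMIs lay in 1 cell. Ifit3b was at 12.02 and 2.60 CPM (ratio 0.217, 0.114 to 0.381) and Ifit2 at 19.5 and 7.81 CPM (ratio 0.399). Other effectors followed the same direction. Oasl2 was at 27.4 and 11.5 CPM (ratio 0.420, 0.312 to 0.559), Cmpk2 at 9.23 and 4.83 CPM (ratio 0.524), Xaf1 at 40.1 and 23.8 CPM (ratio 0.594), Samd9l at 116 and 69.9 CPM (ratio 0.603), Rtp4 at 48.8 and 29.7 CPM (ratio 0.609) and Parp14 at 69.7 and 43.9 CPM (ratio 0.630). Rsad2 was at 19.7 and 7.99 CPM (ratio 0.406, 0.283 to 0.572), but single cells held 25.3% of its control and 34.9% of its knockout UMIs, and its ratio was 1.02 with every cell thinned to 2000 UMIs. Bst2 (177 and 135 CPM, ratio 0.765) and Trim30a (102 and 79.9 CPM, ratio 0.787) were lower by less than 1.5-fold. Oas1a was the exception, at 10.2 and 16.4 CPM (ratio 1.60, 1.18 to 2.19), and 23.8% of its end windows are shared with its neighbour Oas1g.

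The GTPases were lower in 6 of 7 cases. Iigp1 was at 12.9 and 4.83 CPM (ratio 0.376, 0.235 to 0.581), Ifi47 at 39.8 and 18.03 CPM (ratio 0.453, 0.357 to 0.570) and Irgm1 at 42.7 and 21.6 CPM (ratio 0.505). Igtp, Gbp2 and Gbp3 had ratios from 0.556 to 0.630. Gbp7, at 47.2 and 48.5 CPM, had a ratio of 1.03 (0.875 to 1.20). Among sensors, Zbp1, which binds Z-form nucleic acid and can trigger necroptosis, was at 38.6 and 19.1 CPM (ratio 0.496, 0.393 to 0.621), and Ifih1 at 27.8 and 16.0 CPM (ratio 0.575, 0.443 to 0.740). Ddx58 and Dhx58 had ratios of 0.656 and 0.715.

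The signalling and feedback members differed least in this class, and 0 of 5 passed 1.5-fold. Irf7 was at 60.0 and 55.6 CPM (ratio 0.927, with an interval that reaches up to 1.07), so its difference lay within counting error. Isg15 was at 59.5 and 44.8 CPM (ratio 0.753), Stat2 at 43.1 and 29.7 CPM (ratio 0.690, 0.569 to 0.834), Usp18 at 18.2 and 12.5 CPM (ratio 0.684) and Herc6 at a ratio of 0.786 (0.588 to 1.04). Of the Ifi genes, Ifi27l2a was at 636 and 411 CPM (ratio 0.646, 0.614 to 0.679), and 78.4% of control and 58.4% of knockout myeloid cells had it, 52.3% and 36.6% after thinning, against 5.44% and 4.03% of glia without thinning. Lgals3bp was at 49.9 and 26.9 CPM (ratio 0.540, 0.444 to 0.654) and Ifi204 at a ratio of 0.819.

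Ifi202b, a p200-family protein that antagonises DNA sensing and whose expression is known to differ among inbred mouse strains, was present in 1 library only. It lies on chromosome 1 from 173962568 to 173982744 (GRCm38, minus strand, ENSMUSG00000026535). Control myeloid cells had 127 UMIs (15.4 CPM) in 44 of 527 cells, 8.35% (Clopper-Pearson 6.13% to 11.05%), and knockout myeloid cells 0 UMIs in 536 cells, which allows a share of up to 0.560% by 3 cells of the total and of 0.686% by the Clopper-Pearson bound. Set against a floor of 3 counts for the knockout class, its level was at least 27.6-fold lower in the knockout library. The control cells with a UMI were 21 of 160 macrophages, 17 of 145 monocytes and 4 of 171 dendritic cells, and they included 24 of 380 Xist-positive and 14 of 88 Y-positive myeloid cells. Both sexes of the control library therefore carried it. Both libraries are described as C57BL/6, and whether they differ in genetic background was not tested.

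**Figure D3:**
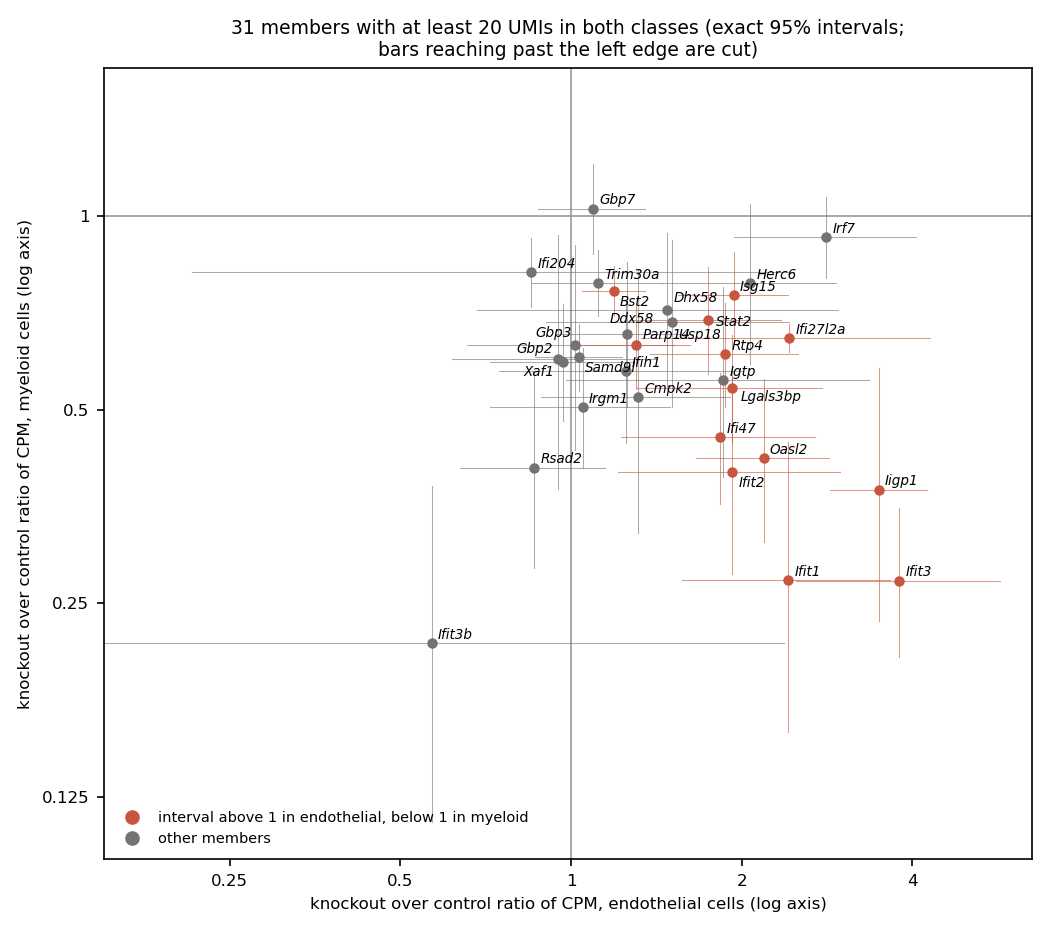
Knockout over control ratio of CPM in endothelial cells (x axis) against that in myeloid cells (y axis), both on log axes, for the 31 members measured in both, with exact 95% intervals. The 13 red points have an interval above 1 in endothelial and below 1 in myeloid cells, with Ifit3 (3.79 and 0.271) and Iigp1 (3.49 and 0.376) farthest to the lower right.

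Of the 31 members measured in both classes, 25 had a ratio above 1 in endothelial cells and below 1 in myeloid cells, as did 25.8% of 9713 genes. In 13 members both intervals lay away from 1 in these directions, against 2.08% of genes: Ifit1, Ifit2, Ifit3, Isg15, Stat2, Oasl2, Bst2, Ifi27l2a, Ifi47, Iigp1, Rtp4, Parp14 and Lgals3bp. In 10 members both ratios passed 1.5-fold, against 0.844% of genes. The plot of endothelial against myeloid ratios shows these members to the lower right. Both ratios come from the same pair of libraries, and the difference between the classes was not tested over samples. The leading class of Ifit3 was myeloid in the control library (4.15 times the endothelial level) and endothelial in the knockout library (3.36 times the myeloid level). Rtp4 likewise led in myeloid cells of the control library and in endothelial cells of the knockout library. For Ifit3 and Rtp4 the intervals of the first and second class were apart in both libraries. Isg15, Stat2, Usp18, Ifih1 and Irgm1 had the same order of leading classes, but these intervals overlapped in at least 1 library. Isg15 was near a tie in the control library, at 1.03 times the endothelial level.

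The make-up of the myeloid class differed between the libraries. It held 160 control and 99 knockout macrophages, 145 and 251 monocytes, 171 and 123 dendritic cells and 28 and 40 neutrophils, gated by further markers. Macrophages carried the most of the set, at 3339 CPM in control and 2681 CPM in knockout cells, a ratio of 0.803 (0.762 to 0.846). Monocytes were at 1875 and 1420 CPM (ratio 0.758, 0.724 to 0.793), dendritic cells at 1223 and 737 CPM (ratio 0.602, 0.565 to 0.641) and neutrophils at 1064 and 497 CPM (ratio 0.467). The summed ratio was thus below 1 in each gate, and nearer to 1 in gated macrophages and monocytes than in the class as a whole. Without Ifi27l2a the gate ratios were 0.841, 0.786, 0.700 and 0.563, in the same order. A cluster made without the members had the macrophage markers C1qa, Mrc1 and Pf4 among its leading genes. Its summed ratio was 0.666 (0.622 to 0.714), lower than in the macrophage gate. Of the members measured, 15 of 34 were at least 1.5-fold lower and 2 higher in macrophages (11.3% and 21.4% of all genes), 13 of 31 lower and 1 higher in monocytes (12.2% and 9.01%), and 15 of 28 lower and 1 higher in dendritic cells (19.5% and 8.63%). The median log2 ratios were −0.52, −0.47 and −0.65, beside 0.13, −0.08 and −0.18 over all genes. In neutrophils 4 of 5 measured members were lower and 0 higher, against 24.2% and 25.4% of genes. The dissociation list differed little in myeloid cells, with 1 of 10 genes 1.5-fold higher, 1 lower and a median log2 ratio of 0.26. Knockout macrophages were also the shallower cells, with a median of 5486 UMIs against 14059.5 in control.

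Single members varied between the gates. In macrophages, Ifit3 was at 121 and 39.3 CPM (ratio 0.326, 0.209 to 0.487), Ifi47 at 81.4 and 25.7 CPM (ratio 0.315, 0.180 to 0.519) and Isg15 at 124 and 63.4 CPM (ratio 0.513). In monocytes Ifit3 was at 13.9 and 12.3 CPM (ratio 0.885, 0.516 to 1.52) and Isg15 had a ratio of 1.17 (0.875 to 1.57), so neither was lower beyond counting error there. In dendritic cells Ifit3 was at 22.2 and 5.72 CPM (ratio 0.257, 0.119 to 0.4995), with 40.0% of its 10 knockout UMIs in 1 cell. Oasl2 showed the reverse order: its ratio was 1.02 in macrophages, at 69.7 and 71.0 CPM, and 0.283 (0.138 to 0.544) in monocytes. Iigp1 was almost confined to macrophages, with 105 of its 106 control and 24 of its 26 knockout UMIs of the class, and within them it was at 45.7 and 36.3 CPM, a ratio of 0.793 (0.486 to 1.25). Its ratio of 0.376 over the class stands beside fewer gated macrophages, 160 control and 99 knockout cells. The cluster led by macrophage markers held 62 and 70 cells. The part of make-up in the Iigp1 ratio was not tested. Zbp1 was lower in all 3 larger gates, with ratios of 0.476 in macrophages, 0.544 in monocytes and 0.322 in dendritic cells, and Oas1a higher in all 3, with ratios of 1.93, 1.92 and 1.69.

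Gbp7 went opposite ways. In macrophages it was at 133 CPM in control and 322 CPM in knockout cells (306 and 213 UMIs), a ratio of 2.41 (2.02 to 2.89), the highest of any member in that gate. In monocytes its ratio was 0.621 (0.399 to 0.959) and in dendritic cells 0.410 (0.139 to 1.01). Its ratio of 1.03 over the myeloid class therefore joins a higher level in fewer gated macrophages with a lower level elsewhere. The cluster of 62 control and 70 knockout cells, made without the members, had the macrophage markers C1qa, Mrc1 and Pf4 among its leading genes. There 0 of 32 measured members were at least 1.5-fold higher, so the higher macrophage ratios of Gbp7 and Oas1a are given for the gate only.

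In clusters made without the members, the summed ratio lay below 1 in each of the 6 myeloid clusters with at least 20 cells of both libraries. It was 0.644 in the cluster with 158 control and 168 knockout cells, where 26 of 33 measured members were at least 1.5-fold lower and 1 higher, against 17.6% and 10.5% of its genes. It was 0.617 with 218 and 127 cells, where 14 of 31 were lower and 1 higher (13.8% and 8.89%), and 0.666 with 62 and 70 cells, where 21 of 32 were lower and 0 higher (12.7% and 16.1%). The smaller clusters had ratios nearer to 1. The ratio was 0.829 with 39 and 31 cells, where 8 of 20 were lower and 4 higher (16.8% and 13.4%), 0.775 with 41 and 61 cells, where 3 of 12 were lower and 2 higher (13.1% and 11.6%), and 0.738 with 36 and 37 cells, where 1 of 5 was lower and 0 higher (30.8% and 13.3%). A cluster of 5 control and 70 knockout cells, at 448 and 671 CPM, was not compared. The within-cluster values of every class were chosen after the data were seen.

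**Figure D4:**
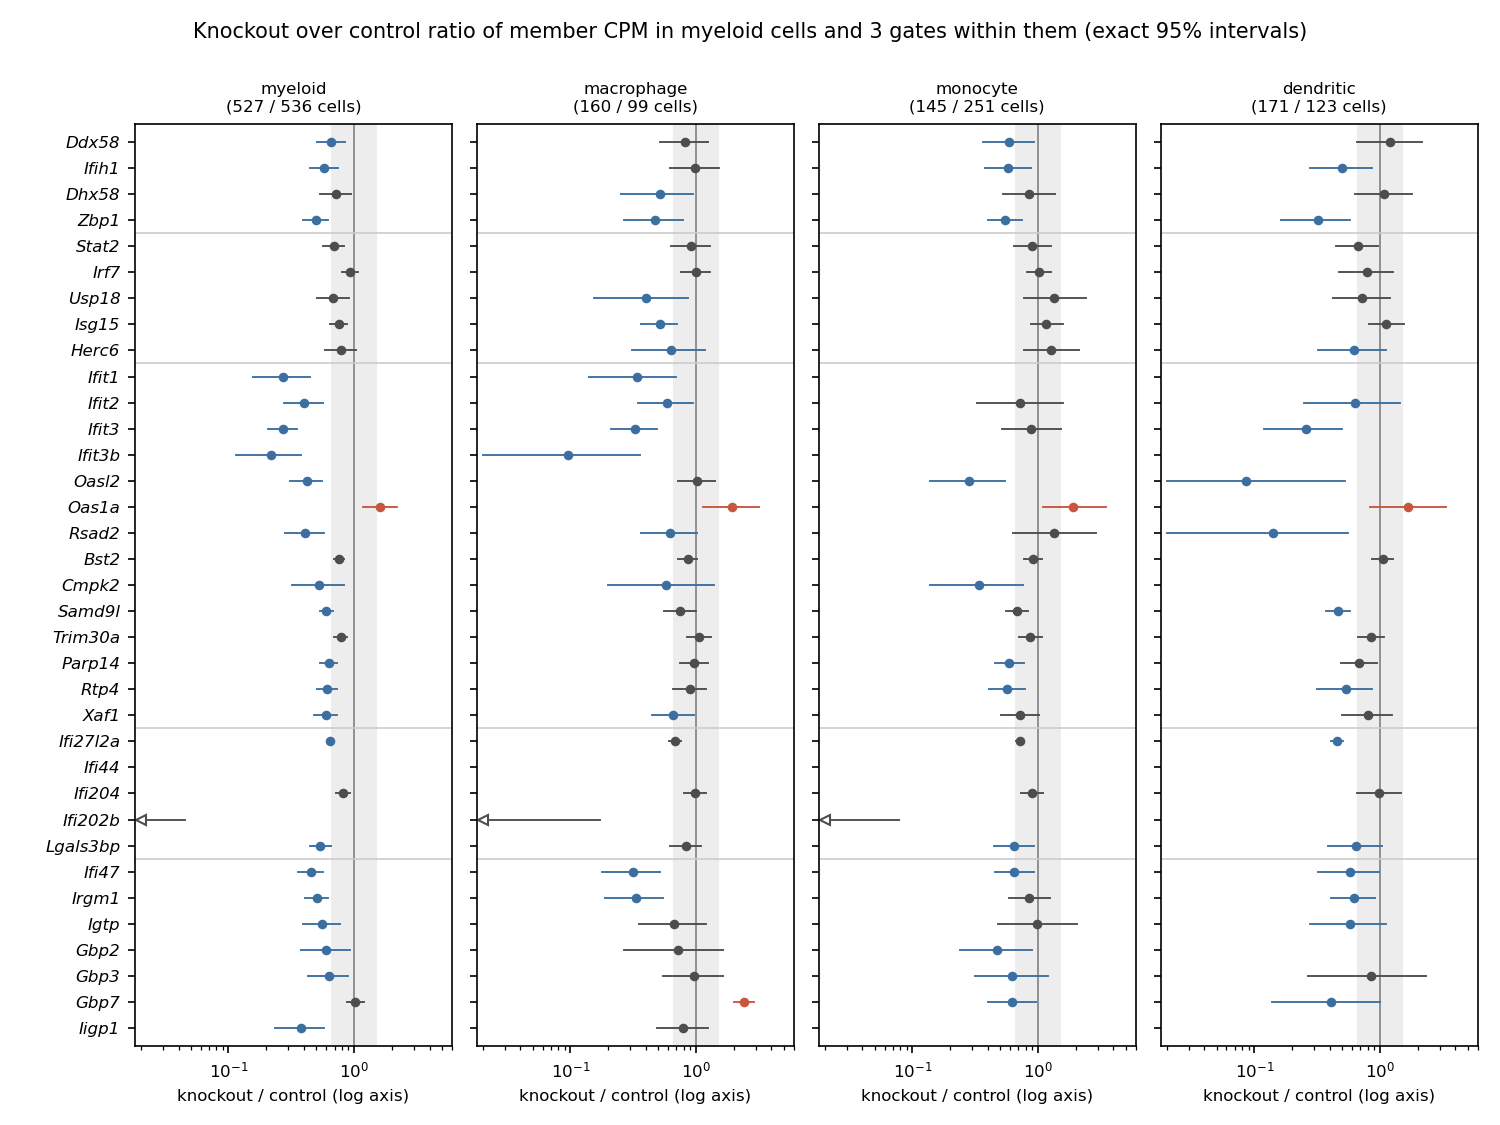
Knockout over control ratio of CPM (x axis, log scale) of members with at least 20 UMIs (y axis) in the myeloid class and its macrophage, monocyte and dendritic gates (panels), with exact 95% intervals, a grey band for differences under 1.5-fold, blue points below it and red above, and open arrows for Ifi202b, which had 0 knockout UMIs. Gbp7 lies to the right of 1 in macrophages (2.41) and to the left in monocytes (0.621), while Zbp1 lies to the left in every gate.

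The lymphoid class was small, and only 9 members reached 20 UMIs. Of these, 4 were at least 1.5-fold higher and 2 lower in the knockout library, against 16.2% and 16.5% of 4563 genes, and the median log2 ratio was 0.30 beside −0.02 over all genes. By the interval, 1 lay above 1 and 2 below, against 8.55% and 8.37% of genes. Ifi27l2a led the class at 366 and 234 CPM (ratio 0.640, 0.475 to 0.858), and Trim30a, a regulator of innate signalling of which 22.0% of end windows are shared with Trim30d, was at 82.4 and 33.0 CPM (ratio 0.401, 0.180 to 0.835). Igtp was at 18.3 and 69.1 CPM (ratio 3.77, 1.49 to 11.3), but single cells held 33.3% of its 6 control and 43.5% of its 23 knockout UMIs. Ifi47 had a ratio of 1.84 (0.948 to 3.70) with 40.0% and 32.1% of its UMIs in single cells, Gbp7 one of 1.53 with 33.3% of its control UMIs in 1 cell, and Parp14 one of 1.72 (0.809 to 3.84). Samd9l was at 156 and 132 CPM, and Ddx58, the 1 sensor measured, at 12 and 9 UMIs. The lymphoid counts therefore rest on few cells, and without the cell of each library that held most member UMIs they were 2 higher and 1 lower. The make-up of the class differed too, with NK markers summing to 217 CPM in control and 1192 CPM in knockout cells. In the B cell cluster, with 23 cells of each library, the summed ratio was 0.874 (0.716 to 1.06). There 0 of 3 measured members were higher and 1 lower, against 11.8% and 25.6% of its genes. The part of make-up in the lymphoid ratios was not tested.

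Stromal cells carried the set at low levels. Of 28 measured members, 5 were at least 1.5-fold higher and 2 lower in the knockout library, beside 11.3% and 10.4% of 13255 genes, and the median log2 ratio was 0.08 beside −0.02. The interval lay above 1 for 3 members (19.1% of genes) and below 1 for 2 (19.6%). Isg15 was at 10.8 and 20.1 CPM (ratio 1.86, 1.39 to 2.49), Xaf1 at 9.66 and 16.5 CPM (ratio 1.71, 1.24 to 2.33) and Stat2 at 15.7 and 22.2 CPM (ratio 1.41, 1.08 to 1.83). Irf7, Usp18 and Ifit3 had ratios of 1.52, 1.58 and 1.59 whose intervals include 1. The lower members were Ifi27l2a, at 12.9 and 7.17 CPM (ratio 0.557, 0.362 to 0.830), and Ifit3b (ratio 0.519, 0.177 to 1.27). Lgals3bp, the most abundant member here, was at 53.7 and 50.4 CPM (ratio 0.938, 0.798 to 1.10), and Samd9l at 40.7 and 30.6 CPM (ratio 0.750). The sensors Ddx58 and Dhx58 had ratios of 1.05 and 1.06, and the GTPases Gbp7, Gbp2 and Igtp 1.09, 1.11 and 0.793. Rsad2 had 1 UMI in each library and Oas1a 0. The dissociation list was higher by 1.5-fold for 9 of 10 genes in knockout stromal cells, with a median log2 ratio of 0.92, and myeloid markers summed to 72.4 CPM in control and 158 CPM in knockout stromal cells. The part of either in the stromal values was not tested. The mesenchymal and mural gates had summed ratios of 1.09 and 0.999. The libraries filled the stromal clusters unevenly. The summed ratio was 0.719 (0.581 to 0.896) in the cluster with 31 control and 176 knockout cells, 0.552 (0.306 to 0.919) in that with 122 and 22 cells and 1.21 (1.001 to 1.46) in that with 152 and 42 cells. In the other 3 compared it lay between 0.836 and 0.993, and each interval includes 1.

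Glia, gated beside these classes, had 0 members higher and 7 lower of 23 measured, against 10.2% and 9.43% of 11458 genes, with a median log2 ratio of −0.27 beside 0.01. The interval lay below 1 for 6 members (16.8% of genes) and above 1 for 0 (17.5%). Parp14, the leading member, was at 60.6 and 45.0 CPM (ratio 0.742, 0.610 to 0.900), Samd9l at 24.7 and 13.8 CPM (ratio 0.561, 0.394 to 0.784), Ifih1 at 8.05 and 2.94 CPM (ratio 0.365, 0.165 to 0.733) and Usp18 at 21 and 4 UMIs (ratio 0.327). Isg15 was at 22.6 and 16.2 CPM. Glial clusters differed in this. The summed ratio was 0.985 (0.880 to 1.10) in the cluster with 180 control and 136 knockout cells, 1.04 (0.846 to 1.28) in that with 103 and 55 cells and 0.773 (0.653 to 0.914) in that with 130 and 185 cells, which carried the set least, at 171 and 132 CPM. With every cell thinned to 2000 UMIs the median log2 ratio of the members in glia was 0.08. Dissociation genes were 1.5-fold higher for 6 of 10 in knockout glia (median log2 0.96), and myeloid markers summed to 51.7 and 116 CPM. The part of either in the glial values was not tested.

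The class sums do not say whether many cells or few carried the set. Cells were therefore counted by Ifit1, Ifit2, Ifit3, Isg15, Rsad2, Usp18, Cmpk2, Oasl2, Irf7 and Rtp4, the core genes, after thinning every cell to 2000 UMIs. Cells with at least 3 of the 10 made up 15 of 369 control endothelial cells (4.07%, Clopper-Pearson 2.29% to 6.62%) and 9 of 105 knockout ones (8.57%, 3.99% to 15.6%), with 30 and 33 shallower cells left out. The ratio of these shares was 2.11 with an interval of 0.814 to 5.14, which includes 1. Thinned to 4000 UMIs instead, with 347 of 399 control and 88 of 138 knockout cells, the endothelial shares were 11.0% and 26.1%, a ratio of 2.39 (1.36 to 4.11). With both settings changed, to 4000 UMIs and at least 4 of the 10 genes, the ratio was 3.15 (1.35 to 7.22). The endothelial share was therefore higher in the knockout library beyond counting error at the greater depth only. Over the 5 alternatives that changed only the depth or only the number of genes, the endothelial ratio lay between 1.26 and 2.39. Myeloid cells with at least 3 of the 10 were 34 of 516 (6.59%) and 16 of 508 (3.15%), a ratio of 0.478 (0.246 to 0.890), with 11 and 28 cells left out. At 4000 UMIs the myeloid ratio was 0.628 (0.397 to 0.980). Without thinning the shares were 24.1% and 30.4% in endothelial and 26.4% and 11.8% in myeloid cells. Macrophages had the highest thinned share, 13.2% in control and 7.53% in knockout cells. Such cells were rare elsewhere: 3 of 436 and 2 of 350 glia, 1 of 790 and 0 of 470 stromal cells, and 0 of 36 and 0 of 42 lymphoid cells. By 3 cells of the total, these counts of 0 allow shares of up to 0.638% in knockout stromal cells and 8.33% and 7.14% in lymphoid cells. The Clopper-Pearson bounds are 0.782%, 9.74% and 8.41%.

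**Figure D5:**
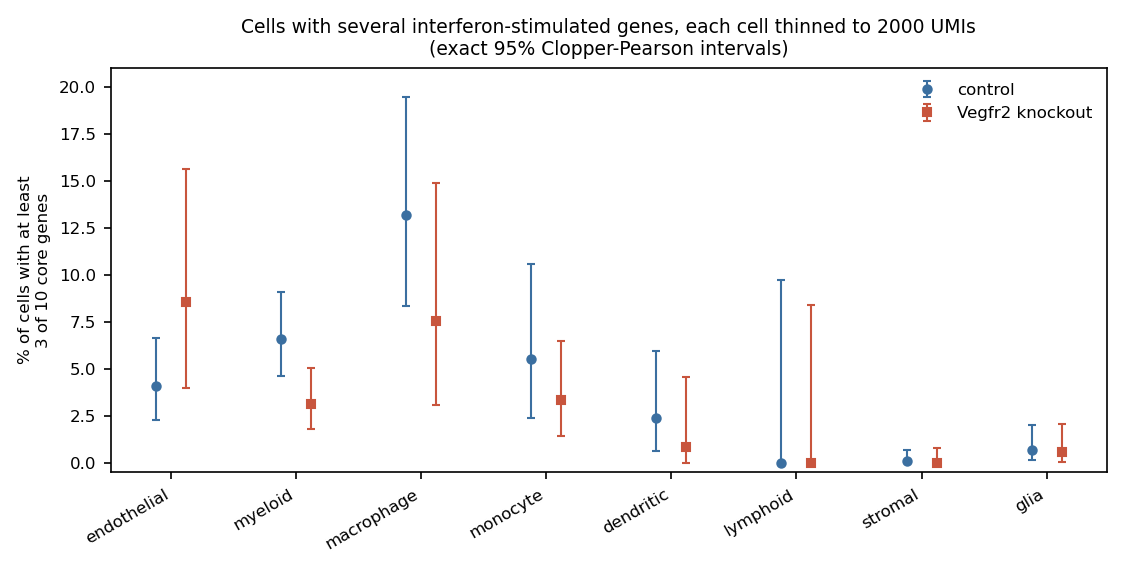
Share of cells (y axis, percent) with at least 3 of the 10 core genes after thinning to 2000 UMIs per cell, for each class and myeloid gate (x axis), with circles for the control and squares for the knockout library and exact 95% Clopper-Pearson intervals. Macrophages of the control library are highest at 13.2%, and stromal cells, glia and lymphoid cells are near 0.

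Core transcripts were concentrated in few cells of both libraries. The 27 control myeloid cells with the most core UMIs (the top 5%) held 52.9% of the core UMIs of the class but 5.98% of all its UMIs, and 1 cell had 259 core UMIs. In the knockout library the top 27 cells held 47.1%, and the highest had 90. In endothelial cells the top 5% held 38.9% and 39.4%. Cells with no core UMI were 36.4% of control and 51.1% of knockout myeloid cells, and 33.8% and 41.3% of endothelial cells, at median depths of 15714 and 9596.5 UMIs per cell in myeloid and 9880 and 5707 in endothelial cells.

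Across single myeloid cells, 5 genes outside the set were among the 10 most correlated with the summed log-scaled members in both libraries. Slfn5, a Schlafen family protein, had a Pearson r of 0.617 over 527 control and 0.559 over 536 knockout cells. Ifi213 (0.596 and 0.532) and Ifi203 (0.549 and 0.461) are p200-family genes near Ifi204, Fcgr1 (0.592 and 0.491) encodes the high-affinity IgG receptor, and Ms4a6b (0.562 and 0.468) a membrane protein of the MS4A family. The cells of a library share that library, and the summed score itself had an r of 0.0125 and −0.0534 with the depth of the cell. All myeloid gates were pooled here, and macrophages carried the most of the set. The part of cell type in these correlations was not tested.

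Among the other genes of the pathway, the ligands were nearly unseen. In all kept cells the type I interferons searched had 0 UMIs except Ifnk, with 3 in the control library, and Ifng, the gamma interferon of T and NK cells, had 3 control and 12 knockout UMIs. The receptor genes were measured for 5 of 6 in both endothelial and myeloid cells, and 0 passed 1.5-fold in either. Of signal transduction genes, 3 of 10 were higher and 0 lower in endothelial cells, against 11.6% and 15.3% of all genes: Stat3 (105 and 235 CPM, ratio 2.23), Irf1 (80.9 and 151 CPM, ratio 1.87) and Jak2 (36.4 and 67.2 CPM, ratio 1.85). The ratios of Stat3, Irf1 and Jak2 were 1.73, 2.03 and 1.11 in stromal cells, 1.23, 1.12 and 1.69 in glia, and 1.08, 0.984 and 0.722 in lymphoid cells. In myeloid cells Stat3 had a ratio of 1.52, and Irf9, a subunit of the ISRE-binding complex, was at 59.2 and 39.0 CPM (ratio 0.659, 0.558 to 0.776). Irf9 had a ratio of 1.24 (0.914 to 1.67) in endothelial cells.

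Pathway inhibitors were higher for 2 and lower for 0 of 8 in endothelial cells, and higher for 2 and lower for 1 of 9 in myeloid cells. For these and the following lists, the shares over all genes were 11.6% higher and 15.3% lower in endothelial cells, and 9.27% higher and 10.9% lower in myeloid cells. Socs3, a brake on STAT3 signalling, had a ratio of 1.99 in endothelial and 0.601 in myeloid cells, whereas Socs1, a brake on interferon receptors, was at 5.58 and 15.6 CPM in myeloid cells (ratio 2.80, 1.93 to 4.10). In stromal, glial and lymphoid cells Socs3 had ratios of 1.11, 2.32 and 5.41. Socs1 had ratios of 2.72 (2.19 to 3.37) in stromal cells, 1.72 (0.734 to 4.02) in glia and 0.713 (0.248 to 1.68) in endothelial cells. A second list of 52 interferon-stimulated genes outside the set had 6 of 36 measured higher and 3 lower in endothelial cells (median log2 0.14), and 2 of 49 higher and 17 lower in myeloid cells (median −0.38). In endothelial cells it included Ifitm3, which blocks virus entry, at 844 and 1289 CPM (ratio 1.53), and Ifi203, lower at a ratio of 0.650. In myeloid cells it included Mndal at 223 and 88.1 CPM (ratio 0.395) and Mx1, a GTPase that traps viral nucleocapsids, at 24.6 and 11.3 CPM (ratio 0.460). Class I antigen presentation genes passed 1.5-fold in 0 of 12 cases in myeloid cells and in 1 of 11, Psmb10 (ratio 0.643, lower), in endothelial cells. Of 4 interferon-induced chemokines measured in myeloid cells, 1 was higher and 1 lower. Ccl5 was at 16.6 and 43.7 CPM (ratio 2.63, 2.12 to 3.27) and Ccl12 at 47.5 and 26.9 CPM (ratio 0.568, 0.466 to 0.689). Cxcl10 was at 45.8 and 63.0 CPM (ratio 1.38, 1.19 to 1.60) and Ccl7 had a ratio of 0.852 (0.667 to 1.08). In lymphoid cells Ccl5, which T and NK cells also make without interferon, had 9 control and 278 knockout UMIs. The knockout lymphoid class also held more T and NK cells than the control one.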

How the data were processed

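Single-cell 3' RNA-seq was available for 1 control and 1 Vegfr2 knockout library. The authors deposited raw UMI counts per gene and barcode, not normalised, in matrices of 31053 genes. Per the file headers the control matrix came from Cell Ranger 5.0.0 and the knockout matrix from Cell Ranger 6.0.1, while mm10 and only the later version appear in the submitters' processing notes. Groups were taken from the labels.

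The cell filter asked for 500 genes or more, 1000 UMIs or more and no more than 10% of UMIs from mitochondrial genes. Scrublet in scanpy called 24 of 4012 cells (0.598%) doublets, which were removed, so undetected doublets remain. A cell joined the class with the highest share of its markers detected, if at least 3 were and the next class reached at most 0.5 of that share. Cells at the limit, with 3 markers, numbered 22 and 21. Myeloid and stromal gates needed 2 further markers. The Leiden clusters (resolution 1, 30 components, 15 neighbours, 2000 variable genes) left the members out. Control and knockout UMIs were summed per class and divided by the class total (CPM). Ratios carry exact conditional 95% intervals of 2 Poisson rates, levels Poisson and shares Clopper-Pearson intervals. Called genes differed by at least 1.5-fold with at least 20 UMIs over both libraries. The calculation was tested on simulated independent Poisson counts, which do not hold the concentration of UMIs in few cells. A fold against 0 UMIs used a floor of 3 counts over the class.

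Named with values were, for each class and role, the member with most UMIs, the 2 with the largest difference, and members with over 25% of a library's UMIs in 1 cell, with further members to complete each role. Slfn5, Ifi213, Ifi203, Fcgr1 and Ms4a6b were named by correlation with the members. Other genes outside the set were picked from the fixed lists of pathway genes, without that rule. Some results on other pathway genes are not reported here. The members and lists were chosen with earlier results of these data known. Alternatives covered scaling, thinning, minimum counts, cell filters, gates, clusters, doublets, sex and the top cell. Scripts ran on Python 3.11.15 with numpy 2.4.6, pandas 2.3.3, scipy 1.17.1 and matplotlib 3.10.9, and clustering used scanpy 1.11.5, anndata 0.12.19, igraph 0.11.9 and scikit-learn 1.9.0.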

Additional observations from a re-analysis of the deposited data

Results flagged for a closer look

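For 13 members the knockout over control ratio had an interval above 1 in endothelial cells and below 1 in myeloid cells, so the contrast went opposite ways in the 2 classes. Each ratio compares 1 library with 1 library, and the difference between the classes was not tested. Ratios in endothelial and then myeloid cells follow. Among the Ifit genes they were 2.42 and 0.272 for Ifit1, 1.92 and 0.399 for Ifit2 and 3.79 and 0.271 for Ifit3. Other antiviral effectors had 2.18 and 0.420 (Oasl2), 1.19 and 0.765 (Bst2), 1.87 and 0.609 (Rtp4) and 1.30 and 0.630 (Parp14). The GTPases had 3.49 and 0.376 (Iigp1) and 1.83 and 0.453 (Ifi47). Isg15 had 1.94 and 0.753 and Stat2 1.74 and 0.690. Ifi27l2a had 2.43 and 0.646, and Lgals3bp 1.92 and 0.540. In Y-positive cells Ifi27l2a (0.582) and Bst2 (0.979) lay below 1 in endothelial cells, and Ifit1 (1.20), Iigp1 (1.43) and Stat2 (1.14) lay above 1 in myeloid cells.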

How the results depend on the processing

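No paired analysis was possible because each genotype has 1 library. The values are limited by 138 knockout endothelial cells, by 38 and 44 lymphoid cells and by the lower depth of the knockout library. Of the alternatives tried on the class summaries, 173 values stayed within their counting interval, within the spread of the members for a median or within 1.5 times for a count, and 45 moved further. The endothelial summed ratio stayed between 1.31 and 1.49, and the myeloid one between 0.622 and 0.723, under every alternative run on the class summaries. Single clusters and gates, which were not among these alternatives, reached outside these ranges. The ratio was 1.24 in an endothelial cluster, 0.829 in a myeloid cluster, 0.803 in the macrophage gate and 0.467 in the neutrophil gate. Causes of the moves were not tested, except that fewer genes or cells enter where a limit is stricter.

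With each cell counted equally, the summed ratio was 1.31 in endothelial, 0.723 in myeloid and 0.939 in stromal cells, 14 myeloid members were lower, 1 stromal member was higher and the stromal median log2 was −0.12. Thinned to 2000 UMIs, the summed ratio was 1.36 in endothelial and 0.710 in myeloid cells, with 8 endothelial, 0 lymphoid and 2 stromal members higher and 1 lymphoid lower. Ratios on the other side of 1 there included 1.02 for Rsad2 in myeloid, 1.26 for Ifit3b in stromal, 1.25 for Lgals3bp in glial and 1.14 for Irf7 in myeloid cells, and Dhx58 in endothelial cells lay below 1 as well. Gbp7 in lymphoid cells was at 0.753 with cells counted equally and 0.399 in Y-positive cells.

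In Xist-positive cells the summed ratio was 1.32 in endothelial, 0.700 in myeloid and 0.725 in lymphoid cells, with medians of −0.75 in lymphoid and −0.022 in stromal cells and 2 lymphoid members higher. In Y-positive cells 6 endothelial members were higher and 2 lower, 13 myeloid members were lower (median −0.45), 0 lymphoid members were higher and 1 lower (median −0.97, summed ratio 1.86), and the stromal median was 0.25. Ratios on the other side of 1 there included 0.582 for Ifi27l2a, 0.979 for Bst2 and 0.388 for Dhx58 in endothelial, 1.43 for Iigp1, 1.20 for Ifit1 and 1.14 for Stat2 in myeloid, and 0.870 for Xaf1 in stromal cells. Over the alternatives, Gbp7 in myeloid cells lay between 0.669 and 2.16.

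With at least 50 UMIs, 0 endothelial, 1 lymphoid and 1 stromal member were lower and 0 lymphoid higher. With no minimum, 7 lymphoid were higher and 6 lower, and 10 stromal higher. The stricter cell filter gave a myeloid ratio of 0.622, a stromal one of 1.19 (median 0.24, 8 higher) and 0 endothelial members lower. Leiden clusters also gave 0 endothelial members lower. Median-of-ratios scaling gave 0.697 in myeloid cells. Lymphoid counts were 1 lower with 2 markers, 2 higher with 5 markers, and 2 higher and 1 lower without the top cell.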
